A study of Peromyscus maniculatus with 16 samples.

Results

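Kupffer cells are the macrophages that live in the sinusoids of the liver, and 10 genes used as their markers in rodents were followed in the livers of 16 deer mice. The genes were taken by symbol from a list of markers: C1qa, C1qb, C1qc, Clec4f, Mrc1, Marco, Cd163, Vsig4, Timd4 and Cd5l. Of these 10, 9 were among the 16910 genes of the count table, and all 9 passed the filter on low counts, which asked for a CPM (counts per 1000000 counts of the library) of 0.5 or more in any 1 animal and which 12639 genes passed. Cd5l was not in the table and was not analysed here.

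The study sequenced RNA of whole liver from Peromyscus maniculatus, an outbred rodent, to compare animals that did and did not develop fatty liver on the same diet. The control group, called C, held 6 males on regular diet. The other 10 animals received a high-fat diet with sucrose, with 58 kcal% fat, for 28 weeks from an age of 3 to 4 months. They were divided by outcome into NS, 5 males without steatosis, and S, 5 animals with steatosis. The S group held 3 females, animals 35982, 35955 and 35990, and 2 males, animals 36016 and 10880. All animals were 10 months old at the end. Of the 16 animals, 13 were of the BW stock, a closed colony of P. m. bairdii, and 3 were of the SM2 stock, P. m. sonoriensis. Each group held 1 SM2 male: animal 10876 in C, animal 10865 in NS and animal 10880 in S. Since all 3 females were S animals, sex and steatosis cannot be told apart for them.

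Total counts per animal ran from 6374518 to 11349971 in C, from 7336900 to 9362184 in NS and from 4640733 to 10892425 in S. Levels are given as CPM after TMM normalization, a scaling of library sizes by edgeR, and differences as log2 fold changes with their standard error (SE). Transcript lengths were not used, so levels are compared between animals. Where the most abundant gene of a list is named, it is the gene with the largest mean CPM, not scaled by length. A gene is called where the Benjamini-Hochberg adjusted p of edgeR's quasi-likelihood test over all 12639 genes was under 0.1 and the fold was at least 2. Each of the 9 genes had at least 1 count in every animal.

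Kupffer cells settle in the liver before birth, renew themselves there, and clear bacteria, dying cells, aged erythrocytes and soluble complexes from portal blood. Many of their markers are the receptors and opsonins of that clearance: C1q and VSIG4 handle complement-tagged particles, lectins and scavenger receptors bind sugars and polyanions, TIM-4 binds dying cells and CD163 takes up haemoglobin bound to haptoglobin. When resident cells are lost, as can happen in fatty liver, monocytes enter and take up part of the marker set, with TIM-4 known as a late marker of long residence.

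C1qa, C1qb and C1qc encode the A, B and C chains of C1q, the recognition unit of the classical complement pathway, which in the liver is made largely by macrophages. In C, C1qb ranged from 51.9 to 79.9 CPM with a median of 62.2. In NS, C1qb was 29.6 CPM in animal 10865, 68.5 in 35963, 58.4 in 35987, 97.7 in 35930 and 61.7 in 35937. In S the gene stood at 83.0 CPM in 35982, 99.8 in 35955, 207 in 35990, 42.2 in 36016 and 29.97 in 10880. The female 35990 stood highest of the 16 animals, the SM2 males of NS and S stood lowest, and the 3 groups overlapped. C1qa had a median of 57.5 CPM in C (50.0 to 90.2), of 55.2 in NS (35.3 to 92.9) and of 75.9 in S (29.1 to 157.6). C1qc had a median of 64.7 CPM in C (45.2 to 84.7), of 61.0 in NS (33.7 to 91.5) and of 82.8 in S (28.9 to 189.7). For both chains, animal 35990 was again the highest of the 16 and animals 10865 and 10880 were the lowest. C1qb differed between S and C by a log2 fold change of 0.53 (SE 0.378, adjusted p = 0.406), C1qc by 0.50 (SE 0.352, adjusted p = 0.403) and C1qa by 0.33 (SE 0.328, adjusted p = 0.574). In bulk liver, fewer or more cells of a type cannot be told apart from less or more RNA per cell, here and for every gene that follows.

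**Figure D1:**
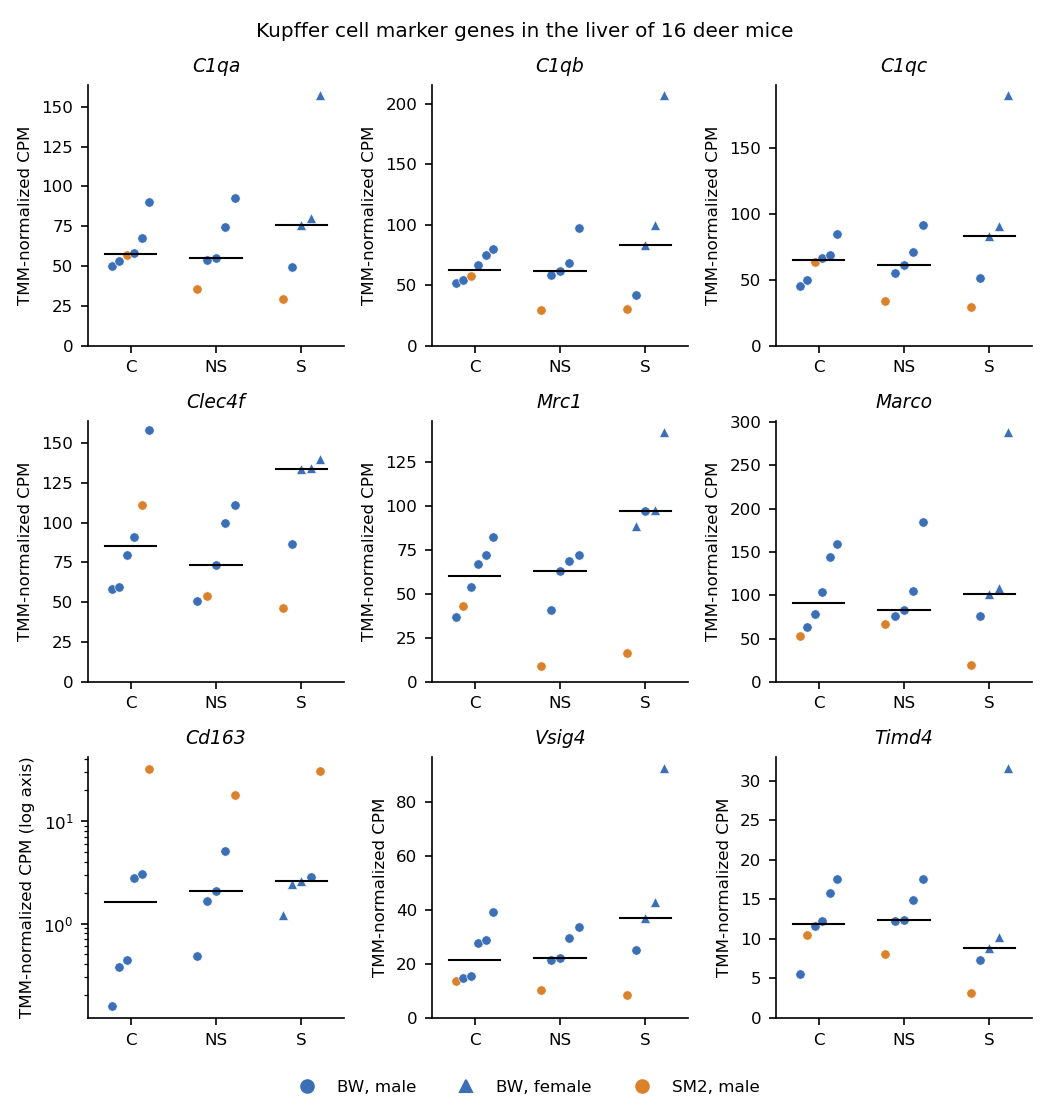
Level of each of the 9 marker genes in TMM-normalized CPM (vertical axis, logarithmic for Cd163) in C, NS and S, with 1 point per animal coloured by stock and shaped by sex, and the group median as a bar. The SM2 animals sit at 18.2 to 32.4 CPM for Cd163, above all BW animals, and at 8.41 to 13.8 CPM for Vsig4, below all BW animals.

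The share of each chain in the summed C1q counts, not scaled by length, varied less between animals than its level did. C1qa made up 28.4% to 35.8% of the summed C1q counts over the 16 animals (median 32.7%), C1qb 29.5% to 38.6% (median 34.2%) and C1qc 30.7% to 36.0% (median 33.1%). In level, the highest animal exceeded the lowest 5.41-fold for C1qa, 7.00-fold for C1qb and 6.57-fold for C1qc. In the RefSeq annotation of another assembly of the species, which held 8 of the 10 symbols, the genes stand in the order C1qb, C1qc, C1qa with 0 genes between them.

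Clec4f and Mrc1 encode C-type lectins: CLEC4F is a galactose-binding receptor of rodent Kupffer cells, and MRC1, the mannose receptor, is also made by the endothelium of the sinusoids. In C, Clec4f ranged from 58.1 to 158 CPM with a median of 85.3. In NS, Clec4f was 54.1 CPM in animal 10865, 73.6 in 35963, 99.7 in 35987, 111 in 35930 and 50.9 in 35937. Among the S animals it was 139.7 CPM in 35982, 134 in 35955, 134.4 in 35990, 86.3 in 36016 and 46.3 in 10880. The 3 females lay close together above both S males, yet below the highest C animal, 35998. The highest Clec4f level was 3.42 times the lowest, and the log2 fold change of S against C was 0.22 (SE 0.309, adjusted p = 0.704).

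In C, Mrc1 ranged from 37.2 to 82.4 CPM with a median of 60.4. In NS, Mrc1 was 9.08 CPM in animal 10865, 41.1 in 35963, 72.3 in 35987, 68.8 in 35930 and 62.9 in 35937. The level in S was 88.8 CPM in 35982, 97.9 in 35955, 142 in 35990, 97.0 in 36016 and 16.7 in 10880. The 4 BW animals of S, the male included, were above every C and NS animal, while the SM2 animal of S was below every C animal, so the groups overlapped through that animal alone. The share of all genes with such an order of the BW animals of S was not taken. The log2 fold change of Mrc1 in S against C was 0.58 (SE 0.452, adjusted p = 0.455), and in S against NS 0.80 (SE 0.477, adjusted p = 0.547). Among BW animals alone the log2 fold change of S against C was 0.77 (adjusted p = 0.0613), short of the fold of 2.

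Marco and Cd163 encode scavenger receptors with cysteine-rich domains: MARCO binds bacteria and particles, and CD163 takes up complexes of haemoglobin and haptoglobin. In C, Marco ranged from 52.8 to 159 CPM with a median of 91.3. In NS, Marco was 66.9 CPM in animal 10865, 105 in 35963, 75.7 in 35987, 184 in 35930 and 82.6 in 35937. The S animals had it at 108 CPM in 35982, 102 in 35955, 288 in 35990, 75.6 in 36016 and 19.1 in 10880. The SM2 animal was the lowest of its group in C, in NS and in S, and animal 35990 was the highest of the 16. The groups overlapped, and the log2 fold change of S against C was 0.24 (SE 0.472, adjusted p = 0.791), or -0.40 without animal 35990.

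Cd163 split the animals by stock in every group. In C, Cd163 was 32.4 CPM in the SM2 animal 10876 and from 0.156 to 3.03 CPM in the 5 BW animals, with a median over the 6 animals of 1.61. In NS, it was 18.15 CPM in the SM2 animal 10865, 1.66 in 35963, 2.07 in 35987, 0.485 in 35930 and 5.16 in 35937. In S the gene stood at 30.8 CPM in the SM2 animal 10880, 2.41 in 35982, 1.22 in 35955, 2.58 in 35990 and 2.82 in 36016. The 3 SM2 animals together held 726 counts of Cd163, from 144 to 329 each, and the 13 BW animals together 195, from 1 to 38 each, with 1 BW animal at 3 counts or fewer. The log2 fold change of S against C was 0.27 (SE 1.14, adjusted p = 0.913) and ranged from -1.58 to 2.58 as each animal was left out in turn.

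Vsig4 and Timd4 encode receptors of the immunoglobulin superfamily: VSIG4, also called CRIg, binds fragments of complement C3 on particles, and TIM-4 binds phosphatidylserine on dying cells. In C, Vsig4 ranged from 13.8 to 39.4 CPM with a median of 21.7. In NS, Vsig4 was 10.5 CPM in animal 10865, 29.6 in 35963, 21.6 in 35987, 33.7 in 35930 and 22.4 in 35937. Among the S animals it was 43.2 CPM in 35982, 37.2 in 35955, 92.6 in 35990, 25.3 in 36016 and 8.41 in 10880. Each SM2 animal was the lowest of its group, and all 3 were below the lowest BW animal, at 14.99 CPM. Of the 9 genes, Vsig4 had the largest log2 fold change of S against C, 0.83 (SE 0.445, adjusted p = 0.263). Without the SM2 animal 10880 it was 1.09 (adjusted p = 0.0963) and called, and without animal 35990 it was 0.29.

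In C, Timd4 ranged from 5.50 to 17.6 CPM with a median of 11.9. In NS, Timd4 was 8.07 CPM in animal 10865, 12.2 in 35963, 17.6 in 35987, 14.9 in 35930 and 12.3 in 35937. The level in S was 8.90 CPM in 35982, 10.2 in 35955, 31.6 in 35990, 7.32 in 36016 and 3.17 in 10880. Animal 35990 was the highest of the 16, while the other 4 S animals were below the median of C. The log2 fold change of S against C was 0.020 (SE 0.426, adjusted p = 0.985), and without animal 35990 it was -0.72.

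In the comparison of S with C, which asks what differs in livers that became fatty, 0 of the 9 genes were called higher, where 3.09% of all genes tested were, and 0 were called lower, where 0.965% were. By edgeR 0 of the 9 had an unadjusted p under 0.05, against 23.8% of all genes, and 0 had groups that did not overlap, against 4.19%. DESeq2 had a value for 8 of the 9 and called 0. All 9 log2 fold changes were above 0, where 7305 of the 12639 genes were, with a median of 0.33 beside 0.10 over all genes. Most of the 9 genes moved together from animal to animal, so their directions are not separate observations. Leaving out animal 10880 brought the number called to 1, Vsig4, and the number with an unadjusted p under 0.05 to 4, C1qb, C1qc, Mrc1 and Vsig4, all higher, beside 13.1% of all genes higher at such a p in that fit. In BW animals alone the same 4 were higher, beside 13.8%. At such a p, 1 was higher without animal 10876 (Cd163, beside 12.9%) and 1 without 35998 (Vsig4, beside 13.8%). In other fits the genes with such a p were lower: C1qb and Timd4 with sex as a covariate (beside 9.05% of all genes lower) and in males alone (8.45%), and Timd4 with sex and stock as covariates (10.0%) and without animal 35990 (10.4%). Leaving out animal 35990 took C1qa to -0.095 and C1qb to -0.0053.

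In the comparison of NS with C, which asks what the diet did without steatosis, the 9 log2 fold changes ran from -0.27 for Cd163 to 0.099 for Timd4, with adjusted p from 0.876 to 1. The median was -0.011 beside 0.0075 over all genes. By edgeR 0 of the 9 were called in either direction, against 0.0712% of all genes, 0 had an unadjusted p under 0.05, against 8.29%, and 0 had groups that did not overlap, against 0.989%. DESeq2 called 0 of those it had a value for, which were not all 9. The NS medians lay within the range of C for each of the 9 genes.

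In the comparison of S with NS, both on the high-fat diet, 8 of the 9 log2 fold changes were above 0, from 0.21 for Marco to 0.82 for Vsig4, and Timd4 stood at -0.079. The median was 0.51 beside 0.039 over all genes, of which 6813 of 12639 were above 0. By edgeR 0 were called in either direction, against 0.00791% of all genes, 0 had an unadjusted p under 0.05, against 10.9%, and 0 had groups that did not overlap, against 1.18%. DESeq2 had a value for 8 of the 9 and called 0. Without animal 10880, 5 of the 9 were higher at an unadjusted p under 0.05 (C1qb, C1qc, Clec4f, Mrc1 and Vsig4), beside 8.47% of all genes in that fit, as were Mrc1 and Vsig4 in BW animals alone, beside 7.99%, and Mrc1 with stock as a covariate, beside 7.53%. Lower at such a p were C1qb and Timd4 in males alone, beside 4.51% of all genes, Marco and Timd4 with sex and stock as covariates, beside 6.02%, and Timd4 with sex as a covariate, beside 5.13%, and without animal 35990, beside 4.82%. The comparisons of S with C and of NS with C share the C animals, and those of S with C and of S with NS share the S animals.

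**Figure D2:**
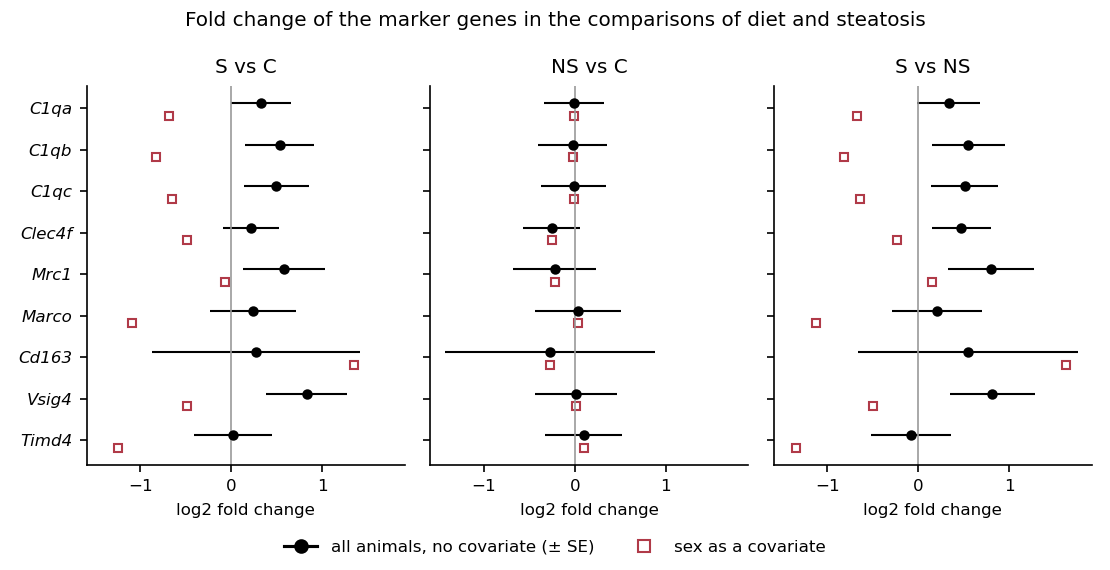
Log2 fold change (horizontal axis) of the 9 marker genes in S against C, NS against C and S against NS, as filled points with SE from all 16 animals, and as open squares with sex as a covariate. With the covariate, S against C moves below 0 for 8 genes, Cd163 being the exception.

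Within S the levels divided by sex as well. The 3 females were above both males, with no overlap, for 7 of the 9 genes (C1qa, C1qb, C1qc, Clec4f, Marco, Vsig4 and Timd4), where 11.6% of all genes tested showed that order. The females were below both males for 1 gene, Cd163, against 9.53% of all genes. The female and male S animals differed in stock too, since 1 of the 2 males was the SM2 animal. With sex as a covariate, which leaves the S against C difference to the 2 S males, the log2 fold change was -0.83 for C1qb, -0.68 for C1qa, -0.65 for C1qc, -0.49 for Clec4f, -0.067 for Mrc1, -1.09 for Marco, -0.48 for Vsig4 and -1.24 for Timd4. Cd163 stood at 1.35 in that fit, and 0 of the 9 genes were called. The parts of sex, stock and steatosis in the S values cannot be told apart with 3 BW females, 1 BW male and 1 SM2 male.

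Between the stocks, 4 of the 9 genes were called. In the 3 SM2 animals, Cd163 was 14.6-fold higher than in the 13 BW animals with group as a covariate (log2 fold change 3.87, SE 0.488, adjusted p = 5.94e-05), and it was above every BW animal in 3 of 3. Mrc1 was lower by 3.27-fold (log2 fold change -1.71, SE 0.379, adjusted p = 0.00614), Vsig4 by 2.81-fold (-1.49, SE 0.403, adjusted p = 0.0193) and Marco by 2.60-fold (-1.38, SE 0.459, adjusted p = 0.0519). C1qb stood at -0.98 (SE 0.371, adjusted p = 0.0860) and C1qa at -0.84 (SE 0.317, adjusted p = 0.0868), both short of the fold of 2. C1qc at -0.82 (adjusted p = 0.134), Timd4 at -0.93 (adjusted p = 0.170) and Clec4f at -0.46 (adjusted p = 0.380) did not pass the test.

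Thus 1 of the 9 genes was called higher in SM2, against 5.91% of all genes tested, and 3 were called lower, against 4.93%. At an unadjusted p under 0.05 there was 1 higher, against 15.4% of all genes, and 7 lower, against 13.7%. The number lower fell to 2 without animal 10880, beside 9.71% of all genes, and to 3 without animal 10865, beside 9.51%. It rose to 8 without animal 10876, beside 13.5%. All 3 females were BW animals. With sex as a covariate 5 were lower and in males alone 6, each beside 14.3%. Cd163 was higher at such a p in each of these fits. Without overlap between the stocks there was 1 higher, Cd163, against 3.77%, and 1 lower, Vsig4, against 3.04%. The median over the 9 genes was -0.93 beside -0.037 over all genes, -0.68 over 8 stellate cell markers, all 8 below 0, and -0.60 over 9 endothelial markers, 7 of them below 0. Of all 12639 genes, 6682 were below 0. DESeq2 called the same 4 genes. The calls of Cd163 (3.40 to 4.23) and Mrc1 (-2.71 to -1.31) held in all 16 fits that left out 1 animal. Without animal 10880, however, Marco (-0.88, adjusted p = 0.299) and Vsig4 (-1.07, adjusted p = 0.157) were not called. Without animal 10876 there were 7 calls, with C1qa (-1.28), C1qb (-1.55) and C1qc (-1.42) added. C1qb alone was added without C animal 35972 (-1.03), C animal 36001 (-1.03) or S animal 36016 (-1.01). Reads of both stocks were aligned to 1 assembly, and the part of that in the differences was not tested.

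**Figure D3:**
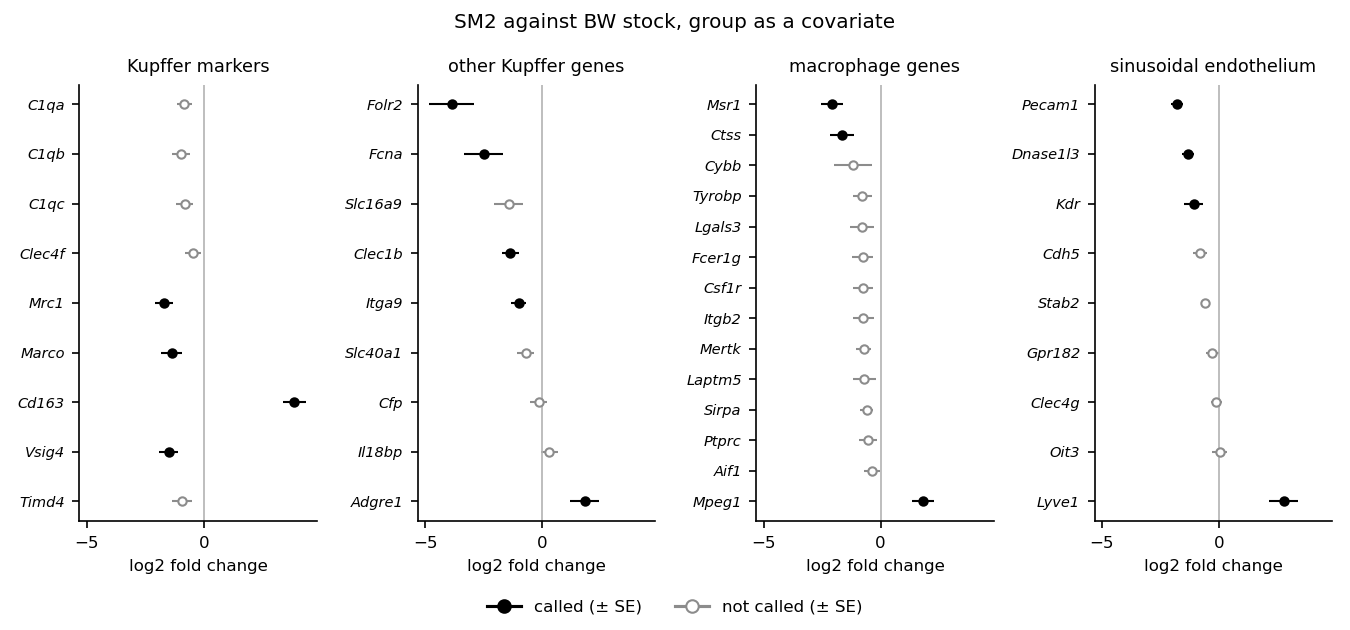
Log2 fold change (horizontal axis, with SE) of SM2 against BW animals, with group as a covariate, for the marker genes and for the genes of 3 lists, other Kupffer genes, macrophage genes and markers of the sinusoidal endothelium. Filled points are called genes; most genes of each list lie below 0, with Cd163, Adgre1, Mpeg1 and Lyve1 called above 0.

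The place of the SM2 animal differed from group to group. In S it was below all 4 BW animals for 8 of the 9 genes, where 24.0% of all genes showed that order, and above them for Cd163, where 26.5% did. In NS it was below all 4 BW animals for 7 genes, against 26.9%, and above them for Cd163, against 28.5%, with Clec4f within their range. In C it was below all 5 BW animals for 2 genes, Marco and Vsig4, against 21.0%, and above them for Cd163, against 22.5%, with 6 genes within their range. The summed level of the 9 genes was 442 CPM in the SM2 animal of C, 265 in that of NS and 212 in that of S, and from 382 to 1246 CPM in the BW animals, with a median of 482. Whether the stocks differed in their response to diet was not tested, with 1 SM2 animal in each group.

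The chains of C1q moved together from animal to animal within groups. Correlations were taken over the 16 animals on the log2 scale with the group means subtracted, for 36 pairs of genes, with p from 100000 permutations within groups. C1qa and C1qc had a Pearson r of 0.98 and a Spearman rho of 0.99. C1qa and C1qb had an r of 0.97 and a rho of 0.96, and C1qb and C1qc an r of 0.97 and a rho of 0.94. For the 3 pairs each permutation p was 1e-05, the smallest that these permutations can give (adjusted 6e-05 for r and 7.2e-05 for rho). Without the 2 animals farthest from the median, 35990 and 10880, r was 0.96 for C1qa with C1qc, 0.93 for C1qa with C1qb and 0.94 for C1qb with C1qc.

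Within the 13 BW animals the C1q chains kept this relation: r was 0.97 and rho 0.95 for C1qa with C1qc (permutation p = 9e-05 and 0.00011, adjusted 0.0009 and 0.00252; r = 0.93 without the 2 farthest animals). For C1qa with C1qb, r was 0.94 and rho 0.90 (permutation p = 7e-05 and 0.0007, adjusted 0.0009 and 0.0042; r = 0.88). For C1qb with C1qc, r was 0.96 and rho 0.93 (permutation p = 0.00038 and 0.00044, adjusted 0.00228 and 0.00317; r = 0.88). Vsig4 moved with C1qc in these animals, with an r of 0.96 and a rho of 0.96 (permutation p = 1e-04 and 0.00015, adjusted 0.0009 and 0.00252; r = 0.95).

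Over the 28 pairs without Cd163, r ran from 0.56 to 0.98 with a median of 0.81 in all animals, and 27 pairs had an adjusted permutation p under 0.05 by r and 20 by rho. Over all pairs of the 10326 genes with a mean of at least 1 CPM, the 9 markers included, r had a median of -0.0013. It was at or above 0.81 in 0.405% of these pairs and at or above the markers' lowest r in 6.17%. A permutation p was taken for the marker pairs alone, so the counts of pairs that passed have no such share beside them. For each pair, r was also taken without the 2 animals farthest from the median of 1 of its genes. That gene was the earlier in the order Clec4f, Marco, Mrc1, C1qa, C1qb, C1qc, Vsig4, Timd4 and Cd163. Without those animals r ran from 0.19 to 0.96 with a median of 0.61, the lowest being Marco with Timd4 (0.72 with them). In BW animals alone, r ran from -0.0063 to 0.97 with a median of 0.68, and 16 pairs had an adjusted p under 0.05 by r and 9 by rho. Of all pairs of genes there, 3.32% had an r at or above 0.68 and 50.6% at or above the markers' lowest r. Mrc1 there had an r of -0.0063 with Marco (adjusted permutation p = 0.985), 0.12 with Clec4f (0.759), 0.19 with Vsig4 (0.601) and 0.20 with C1qa (0.545). Without animals 35998 and 35937, farthest for Clec4f, r of Mrc1 with Clec4f was 0.096. With Marco it was -0.56 without 35990 and 35930, farthest for Marco. Without 36007 and 35963, farthest for Mrc1, r was 0.56 with Vsig4, 0.49 with C1qa, 0.61 with C1qc and 0.88 with Timd4. These values left out unlike animals and are not compared with each other. For Cd163 the stocks form separate clusters, so only BW animals were used: over its 8 pairs r ran from -0.65 with Clec4f to 0.36 with Mrc1. Of these, 0 pairs had an adjusted permutation p under 0.05 by r or by rho. The lowest by r was 0.0815 with Marco (r = -0.57, rho = -0.63, and r = -0.71 without the 2 farthest animals), and by rho 0.0784 with Marco and with Clec4f.

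**Figure D4:**
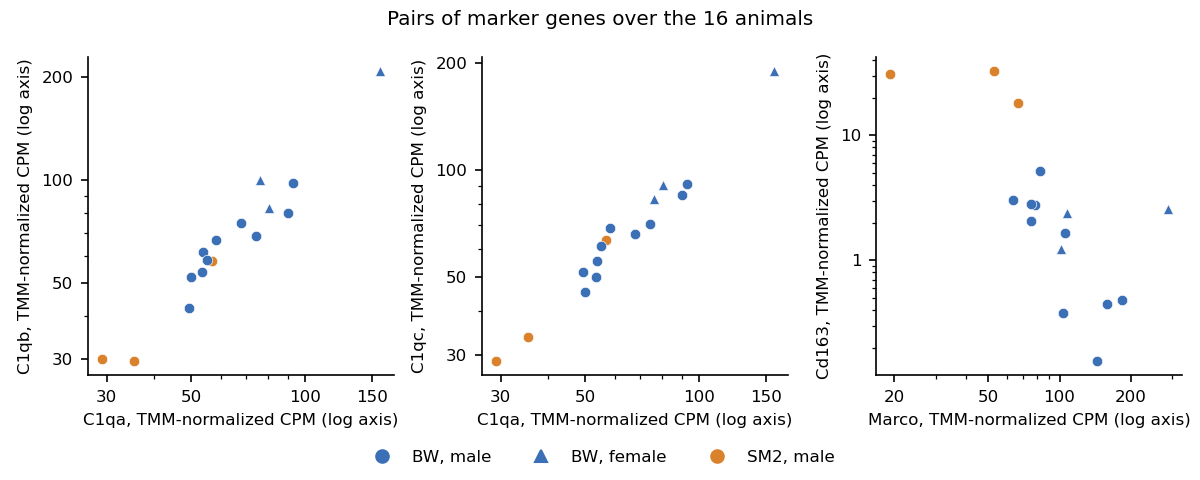
C1qb and C1qc against C1qa, and Cd163 against Marco, in TMM-normalized CPM on logarithmic axes, with 1 point per animal coloured by stock and shaped by sex. The C1q chains fall along a line from SM2 animals 10865 and 10880 at the low end to animal 35990 at the high end, with SM2 animal 10876 among the BW animals, and the SM2 animals lie apart for Cd163.

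Of 10317 other genes with a mean of at least 1 CPM, the 5 closest to the mean standardized level of the 9 markers over the 16 animals were Ctss, Cotl1, Ifngr1, Btk and Vsir, given without a p. Ctss, which encodes the lysosomal protease cathepsin S of antigen-presenting cells, had an r of 0.95 (0.89 without animals 35990 and 10880, and 0.96 in BW animals). Btk, a kinase of B cell and myeloid signalling, had an r of 0.90, Cotl1, an actin-binding protein, 0.91, Ifngr1, a chain of the interferon gamma receptor, 0.90, and Vsir, an inhibitory immune receptor, 0.90. Without animals 35990 and 10880 these were 0.76 for Btk, 0.79 for Cotl1, 0.78 for Ifngr1 and 0.74 for Vsir.

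Of 10 other genes known from Kupffer cells 9 were tested, Fcgr1 being under the filter, and between the stocks 7 of the 9 log2 fold changes were below 0 with a median of -1.003. In SM2, Clec1b, a C-type lectin-like receptor, was lower (log2 fold change -1.37, SE 0.373, adjusted p = 0.0204), as were Fcna, a ficolin (-2.50, SE 0.830, adjusted p = 0.0511), and Itga9, an integrin chain (-1.003, SE 0.312, adjusted p = 0.0388). Folr2, a folate receptor, was called lower with 0, 0 and 3 counts in the SM2 animals and 4 to 57 in the BW animals. Adgre1, which encodes F4/80, was called higher (1.81, SE 0.615, adjusted p = 0.0571) on 3 to 16 counts in SM2 animals. Its call ended without animal 10876 (0.69, adjusted p = 0.575) or 10865 (2.14, adjusted p = 0.115). Leaving out animal 10865 also ended the calls of Clec1b (-0.95) and Fcna (-1.78), leaving out animal 10880 or the group term that of Fcna (-2.19 and -2.16), and the call of Itga9 held in 7 of 16 such fits (-0.83 to -1.22) and not by DESeq2, with its size factors (both -0.99) or with a filter of 1 CPM in 5 animals (-0.99).

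Slc40a1 encodes ferroportin, the iron exporter with which Kupffer cells return iron from erythrocytes. It was 354 CPM in animal 35982, 508 in 35955, 416 in 35990, 160.5 in 36016 and 83.0 in 10880, while C ranged from 88.4 to 159 with a median of 122. The 3 females were above every C animal and both S males. Slc40a1 was called higher in S against C (log2 fold change 1.31, SE 0.350, adjusted p = 0.0486), a call that ended without C animal 35975 (1.28, adjusted p = 0.104). With sex as a covariate it was -0.019. The summed level of the list was 151 to 235 CPM in C (median 192), 107, 198, 205, 234 and 221 in NS animals 10865, 35963, 35987, 35930 and 35937, and 421, 581, 521, 199 and 117 in S animals 35982, 35955, 35990, 36016 and 10880, with Slc40a1 the most abundant and no tested gene at 0 in all animals. Slc40a1 made up most of the sum in the females, while 4 of the 9 genes were below 0 in S against C, Fcna at -1.79 (adjusted p = 0.198), Slc16a9 at -0.85, Clec1b at -0.40 and Adgre1 at -0.19, none of them called.

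Of 10 transcription factors linked to Kupffer cell identity, all 10 were tested, and Nr1h3, which encodes the oxysterol receptor LXR alpha, was the most abundant. Zeb2, a repressor needed for macrophage identity, was called higher in S against C (1.42, SE 0.484, adjusted p = 0.0932), carried by the male 36016 at 44.5 CPM beside 4.33 to 9.54 in C; the call held in 5 of 16 fits with 1 animal left out and was lost with no filter on low counts (adjusted p = 0.103) and with the C and S animals alone (adjusted p = 0.121), and without 36016 the value was 0.58. Id1, an inhibitor of DNA binding, was lower in SM2 (-2.19, SE 0.542, adjusted p = 0.0120), though not called without animal 10865 (-1.82, adjusted p = 0.103). By edgeR the other 9 genes of the list were not called in S against C, nor the other 9 in SM2 against BW, where DESeq2 called Id1, Id3 and Zeb2.

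Of 19 general macrophage genes, 14 were tested, and Cd68, Lyz2, Lyz1, Cd14 and Fcgr3 were not analysed here. In S against C all 14 log2 fold changes were above 0, where 7305 of the 12639 genes were, with a median of 0.71 beside 0.10 over all genes. EdgeR called 0, with 4 at an unadjusted p under 0.05, where 23.8% of all genes had such a p, and 2, Cybb and Laptm5, called by DESeq2. In SM2 13 of the 14 were below 0 with a median of -0.74. Msr1, a class A scavenger receptor (-2.08, SE 0.452, adjusted p = 0.00545), and Ctss (-1.65, SE 0.529, adjusted p = 0.0442) were called lower, and Mpeg1, which encodes the pore-forming protein perforin-2, was called higher (1.81, SE 0.453, adjusted p = 0.0128). Ctss was not called without animal 10865 (-1.54) or 10880 (-1.22), nor Mpeg1 without animal 10876 (1.19). The summed level was 205 to 378 CPM in C (median 245), 226, 299, 265, 349 and 252 in NS animals 10865, 35963, 35987, 35930 and 35937, and 353 in 35982, 299 in 35955, 1185 in 35990, 266 in 36016 and 181 in 10880. Ctss was the most abundant, no tested gene was at 0 in all animals, and the part of macrophage number in the marker levels was not tested.

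Of 17 genes of recruited monocytes and lipid-associated macrophages, 12 were tested. In S against C their median was 0.80, beside 0.10 over all genes. EdgeR called 0 of the 12, with 4 at an unadjusted p under 0.05, where 23.8% of all genes had such a p, and 0 called by DESeq2. Ly6c2, Ly6c1, Chil3, Itgam and Plac8 were not analysed here. In SM2, Fabp5, a fatty acid-binding protein and the most abundant of the list, was higher (2.69, SE 0.412, adjusted p = 0.000327): 43.2 CPM in 10876, 91.5 in 10865 and 215.6 in 10880, against 5.63 to 32.5 in BW animals. Every SM2 animal was above every BW animal, and the call held as each animal was left out. Spp1, osteopontin, was lower (-2.07, SE 0.745, adjusted p = 0.0713), a call that ended without animal 10876 (-1.70), 10865 (-1.63) or 35990 (-1.63), or without the group term (-1.73). Its value ran from -3.33 to -1.63 as each animal was left out. In S, animal 10880 was at 5.85 CPM, within the 3.52 to 25.65 of the BW animals. The summed level was 57.0, 104 and 236 CPM in SM2 animals 10876, 10865 and 10880, and 18.9 to 86.7 in BW animals with a median of 38.0. Fabp5 made up most of the sum in the SM2 animals, while 8 of the 12 genes were below 0 in SM2 with a median of -0.35. Trem2, Gpnmb and Clec4d, which passed the filter through BW animals alone, are among the 12.

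Growth factors and niche ligands of macrophages numbered 9, of which 8 were tested and Csf2 was at 0 in all animals. Tgfb1 was the most abundant, and the summed level was 51.3 to 96.9 CPM over the 16 animals. Jag1, a Notch ligand, was called higher in S against C (1.54, SE 0.432, adjusted p = 0.0557), at 3.05 to 4.77 CPM in S and 0.444 to 2.66 in C with no overlap. Its call ended when C animal 35975 (1.55, adjusted p = 0.110), 36001 (1.37) or 36007 (1.35) was left out, and with sex as a covariate it was 1.54 (adjusted p = 0.118).

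The pathways around the markers were followed in 3 further lists. Of 12 classical complement genes 3 were tested, and 2 of the 3 were below 0 in S against C. EdgeR called 0 in that comparison, with 2 at an unadjusted p under 0.05, beside 23.8% of all genes, and 0 called by DESeq2. The most abundant were Cfi, a protease that degrades C3b and C4b, at 569 to 2240 CPM over the animals, and Serping1, the C1 inhibitor. Of 8 genes of haemoglobin and haem clearance 6 were tested, and Hp, which encodes haptoglobin, the carrier that brings haemoglobin to CD163, was lower in S against C (-1.36, SE 0.290, adjusted p = 0.0241). Hp was 12140 to 24860 CPM in C with a median of 15870, and 4655 in 35982, 4466 in 35955, 9332 in 35990, 4305 in 36016 and 8939 in 10880. All 5 S animals were below all 6 C animals, and the call held as each animal was left out. Fth1 and Ftl1 were not analysed here, nor were C1r, C1ra, C1s, C1s1, C3, C4a, C4b, C4bp and C4bpa.

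Of 14 genes of efferocytosis and scavenging, all 14 were tested, with Scarb1 the most abundant. In S against C, Cd36, a scavenger receptor and fatty acid transporter (1.18, SE 0.267, adjusted p = 0.0294), Tyro3 (1.96, SE 0.456, adjusted p = 0.0325) and Axl (1.13, SE 0.341, adjusted p = 0.0660), receptor kinases that recognise dying cells through GAS6, were higher. In SM2, Tyro3 (-1.62, SE 0.389, adjusted p = 0.00990), Axl (-1.13, SE 0.293, adjusted p = 0.0152) and the integrin chains Itgb3 (-1.79, SE 0.397, adjusted p = 0.00623) and Itgb5 (-1.03, SE 0.203, adjusted p = 0.00292) were lower. Scara5 was called higher on 0, 5 and 3 counts in SM2 animals beside 0 or 1 in BW animals, so no fold is given. The gene passed the filter on low counts through SM2 animal 10865 alone and was not tested without it. Its call is therefore not read as a difference between the stocks, and it ended without animal 10880. With sex as a covariate Cd36 (0.82, adjusted p = 0.159) and Axl (0.70, adjusted p = 0.367) were not called in S against C. Tyro3, on 3, 4 and 10 counts in the SM2 animals, was not called in males alone in S against C (1.88, adjusted p = 0.103) nor in SM2 with the group term left out (-1.60, adjusted p = 0.126). DESeq2 called Colec12 in SM2 as well, and gave no value for Scara5. As single animals were left out, the calls of Cd36, Itgb3 and of Tyro3 in both comparisons held, Axl in S against C held in 8 of 16 fits (0.79 to 1.35), Axl in SM2 ended without 10880 (-0.87), and Itgb5 held in 12 of 16 (-0.85 to -1.33). Itgb5 also fell short of the fold with sex as a covariate (-0.91), in males alone (-0.91) and with the group term left out (-0.97).

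Markers of the sinusoidal endothelium, the neighbour of the Kupffer cell and another source of Mrc1, numbered 11, of which 9 were tested and Stab1 and Fcgr2b were not analysed here. In S against C edgeR called 0, with 1 at an unadjusted p under 0.05, beside 23.8% of all genes, and 0 called by DESeq2. In SM2, Pecam1, an adhesion molecule of endothelial junctions (-1.80, SE 0.267, adjusted p = 0.000246), Dnase1l3, a secreted nuclease (-1.33, SE 0.249, adjusted p = 0.00181), and Kdr, a VEGF receptor (-1.07, SE 0.406, adjusted p = 0.0854), were lower, and Lyve1, a hyaluronan receptor (2.76, SE 0.615, adjusted p = 0.00627), was higher. Lyve1 was 12.9 CPM in 10876 and 30.1 in 10865, but 0.975 in 10880, within the BW range of 0.664 to 6.96, and was not called without 10865 (1.86, adjusted p = 0.179). Without 10865 Dnase1l3 was -0.96, short of the fold, and Kdr kept its call in 7 of 16 fits (-0.73 to -1.81), while Pecam1 kept it in all 16. The call of Kdr also ended with sex as a covariate (-0.96, adjusted p = 0.129), in males alone (-0.96, adjusted p = 0.149) and with the group term left out (-1.09, adjusted p = 0.129).

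The summed level of the endothelial list was 260 to 414 CPM in C (median 360), 190, 291, 387, 384 and 323 in NS animals 10865, 35963, 35987, 35930 and 35937, and 449 in 35982, 467 in 35955, 483 in 35990, 374 in 36016 and 217 in 10880. The 3 females of S were above every other animal, and the SM2 animals of NS and S were the lowest of the 16. Dnase1l3 was the most abundant, no tested gene was at 0 in all animals, and the part of the endothelium in the level of Mrc1 was not tested. Of 9 hepatocyte markers 6 were tested, and Apoa1 and Ttr were the most abundant. EdgeR called 0 of them in S against C, with 4 at an unadjusted p under 0.05, beside 23.8% of all genes, and 0 called by DESeq2. Of the 6, 5 were below 0 in that comparison, with a median of -0.45. Beside 29.1% of all genes with such a p in SM2 against BW, 0 of the 6 markers had one, and edgeR and DESeq2 called 0 of them. Their summed level was 45850 to 58160 CPM in C, 47720 to 71090 in NS, and 40980 in 35982, 49570 in 35955, 37870 in 35990, 46020 in 36016 and 58390 in 10880. Animal 35990 was the lowest of the 16 by this sum.

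**Figure D5:**
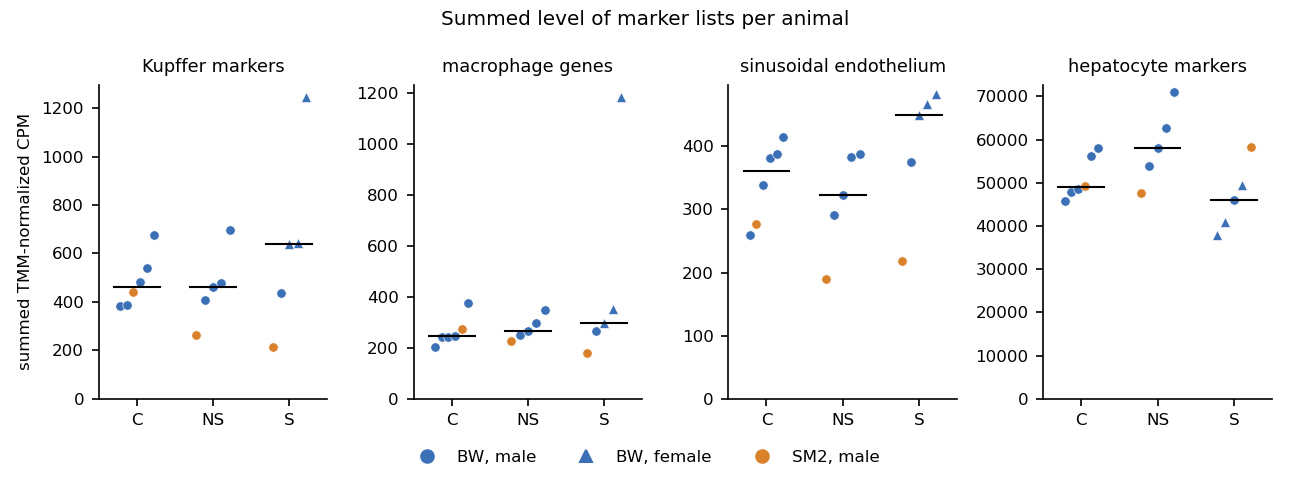
Summed TMM-normalized CPM (vertical axis, from 0) of the marker genes, macrophage genes, markers of the sinusoidal endothelium and hepatocyte markers in C, NS and S, with 1 point per animal coloured by stock and shaped by sex, and the group median as a bar. Animal 35990 is at 1246 CPM for the marker genes and at 1185 for the macrophage genes, above the other 15 animals in both.

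Other cell types of the liver were followed by their markers. Of 10 neutrophil markers 6 were tested, and S100a8 (-1.98, SE 0.518, adjusted p = 0.0452) and S100a9 (-1.77, SE 0.480, adjusted p = 0.0497), the chains of calprotectin, were lower in S against C, with a call that held as each animal was left out but not with sex as a covariate (S100a8 -1.98, adjusted p = 0.144; S100a9 -1.87, adjusted p = 0.138). The list as a whole was divided, with 3 of the 6 genes above 0, Ltf at 0.76, Csf3r at 0.33 and Cxcr2 at 0.26, and 3 below, Camp at -2.35 being the other, and these 4 genes were not called. The 6 genes summed to 27.2 to 77.1 CPM in C, to 10.3 to 57.5 in NS, and to 17.0 in 35982, 5.32 in 35955, 26.8 in 35990, 13.1 in 36016 and 14.7 in 10880, with S100a9 the most abundant. Of 8 stellate cell markers all 8 were tested, and Col1a1, a collagen chain and the most abundant by mean CPM, was called higher in S against C (5.56, SE 1.39, adjusted p = 0.0397). That call and that rank rested on the male 36016, at 2058 CPM beside 3.71 to 10.0 in the other S animals, and the value without it was -0.28. Every other animal had Col1a1 at 17.0 CPM or less and Ecm1 at 31.5 CPM or more. DESeq2 gave no value for Col1a1 in this comparison, so its call was not tested by that method. In SM2 all 8 stellate cell markers were below 0 and 0 were called.

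Of 10 markers of T and NK cells 6 were tested, and in S against C 0 were called by edgeR or DESeq2 and 0 had an unadjusted p under 0.05, beside 23.8% of all genes. Their sum was 1.87 to 10.4 CPM over the animals, with Cd3g and Cd3e the most abundant. Of 7 B cell markers all 7 were tested with a sum of 3.94 to 19.7 CPM, Jchain being the most abundant. Cd79b, a chain of the B cell receptor, was called higher in S against C (adjusted p = 0.0554) on 1 to 4 counts in C and 3 to 21 in S, a call that ended without 35975, 36007 or 35955, with sex as a covariate (adjusted p = 0.232) and in males alone (adjusted p = 0.259). Of 7 dendritic cell markers 5 were tested with a sum of 4.13 to 9.99 CPM, most abundant being Zbtb46, and Xcr1, a chemokine receptor, was higher in SM2 (1.67, SE 0.648, adjusted p = 0.0932), a call kept in 6 of 16 fits with 1 animal left out (1.18 to 1.98) and lost without the group term (1.64). Of 5 bile duct markers 4 were tested with a sum of 3.15 to 9.35 CPM, most abundant being Cftr, and Krt7, a keratin, was lower in SM2 (-1.04, SE 0.407, adjusted p = 0.0978), a call kept in 1 of 16 (-0.84 to -1.24) and lost without the group term (-1.01), with sex as a covariate (-1.09), with the size factors of DESeq2 (-1.02) and with no filter on low counts (-1.04). Over these 16 lists, which hold 127 tested genes beside the markers, edgeR called 0 in NS against C, with 6 at an unadjusted p under 0.05, beside 8.29% of all genes, and 2, Apoa1 and Gas6, called by DESeq2. In S against NS edgeR called 0, with 24 at an unadjusted p under 0.05, beside 10.9% of all genes, and 3, Cd36, Hp and Slc40a1, called by DESeq2.

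The S female 35990 held the highest level of 7 of the 9 marker genes, C1qa, C1qb, C1qc, Marco, Mrc1, Vsig4 and Timd4, and ranked 3 for Clec4f and 8 for Cd163. Ctss in this animal was 489 CPM, beside 24.3 to 125 in the other 15 animals. Its sum was the highest of the 16 animals in 8 of 17 lists, the markers included, among them those of T and NK cells, B cells, bile duct and endothelium, and any other animal held the highest in 2 lists or fewer. Its total count, 9001731, lay within the range of the other S animals, while its number of genes with a count, 12868, and its TMM factor, 1.17, were the highest of the 16. What set this animal apart was not tested.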

How the data were processed

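Bulk RNA of 16 livers was sequenced, giving paired reads. With STAR 2.7.2 the authors aligned them to HU_Pman_2.1, and counted them per gene with featureCounts of Subread, and the deposited values are raw counts. The strand setting and the conversion of identifiers to symbols are not given. The markers and lists were chosen with earlier results of these data known.

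Genes that reached 0.5 CPM in any 1 animal were kept, 12639 of 16910. With R 4.3.3, edgeR 4.0.16 fitted TMM-normalized counts of all 16 animals in a single model and tested S against C, NS against C, S against NS and, with group as a covariate, SM2 against BW, by its two-sided quasi-likelihood test with Benjamini-Hochberg adjustment over all genes. Calls needed an adjusted p under 0.1 and a fold of at least 2. The fit was tested on simulated data. Correlations used log2(CPM + 1) with group means subtracted and 100000 permutations within groups, in Python 3.11.15, and figures were drawn with matplotlib 3.10.9. Total counts ran from 4640733 to 11349971 per animal, and values at 3 counts or fewer were taken as the floor, which covers counting error only.

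Named genes were the 9 markers in the table, in each of 16 lists the genes called in any comparison or otherwise the 2 of largest mean CPM, and the 5 genes most correlated with the markers' mean. Genes called by DESeq2 alone, list genes given to show the other direction, and individual animals were named after their values were seen. Alternatives were DESeq2 1.42.0, its size factors, 2 other filters, the compared groups alone, stock or sex as a covariate, BW animals or males alone, other thresholds, each animal left out, and for the C1q correlations CPM by total count and uncentred values. Chosen after seeing the data were sex and stock together as covariates, BW animals alone and stock means subtracted for the correlations, the correlations over all pairs of genes, and the attention to animal 35990. Genes missing from the table were left out.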

Additional observations from a re-analysis of the deposited data

Results flagged for a closer look

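In 27 groups of marker gene levels, 1 for each of the 9 genes in C, NS and S, an animal far from the others of its group was looked for by the gap to its nearest neighbour as a share of the group's range. Chance flags about 1 in 20 such groups. Timd4 in S animal 35990 was 31.6 CPM with the next animal at 10.2, a gap of 0.752 of the range. Cd163 in C animal 10876 was 32.4 CPM with the next at 3.03, a gap of 0.911 of the range. Cd163 in NS animal 10865 was 18.15 CPM with the next at 5.16, a gap of 0.736. Cd163 in S animal 10880 was 30.8 CPM with the next at 2.82, a gap of 0.946. The 3 animals far from their groups for Cd163 are the 3 SM2 animals.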

How the results depend on the processing

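No paired analysis was possible because no animal was in more than 1 group. The 4 calls of SM2 against BW kept their direction under every alternative run in that comparison, and Cd163 and Mrc1 kept their call. Over the members' values in that comparison, 213 alternatives kept direction and side of the threshold, 9 gained a call and 3 lost it. At an adjusted p under 0.05 there were 3 calls, with no minimum fold 6, with the group term left out 5, and from 2 to 7 with each animal left out. The 3 C1q correlations kept direction under all 20 alternatives each, and r moved by no more than its SE, which was 0.015 to 0.026. That SE came from the values with each animal left out, and a threshold on p was not part of this check.

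The diet comparisons turned direction for many members, and for Slc40a1 and Col1a1 among the other genes called. In each case the cause was not tested. With sex as a covariate, S against C was -0.49 for Clec4f, -1.09 for Marco, -0.067 for Mrc1, -0.68 for C1qa, -0.83 for C1qb, -0.65 for C1qc, -0.48 for Vsig4, -1.24 for Timd4 and -0.019 for Slc40a1, and S against NS was -0.24 for Clec4f, -1.13 for Marco, -0.67 for C1qa, -0.81 for C1qb, -0.64 for C1qc and -0.50 for Vsig4. In males alone, S against C was -0.49 for Clec4f, -1.09 for Marco, -0.066 for Mrc1, -0.68 for C1qa, -0.83 for C1qb, -0.65 for C1qc, -0.48 for Vsig4, -1.24 for Timd4 and -0.018 for Slc40a1, and S against NS was -0.23 for Clec4f, -1.13 for Marco, -0.67 for C1qa, -0.81 for C1qb, -0.64 for C1qc and -0.49 for Vsig4.

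With sex and stock as covariates, chosen after seeing the data, S against C was -0.44 for Clec4f, -0.91 for Marco, -0.54 for C1qa, -0.65 for C1qb, -0.54 for C1qc, -0.23 for Vsig4 and -1.10 for Timd4, S against NS was -0.17 for Clec4f, -1.01 for Marco, -0.50 for C1qa, -0.59 for C1qb, -0.49 for C1qc and -0.23 for Vsig4, and NS against C was 0.38 for Cd163. In BW animals alone, NS against C was 0.10 for C1qa, 0.12 for C1qb, 0.13 for C1qc and 0.79 for Cd163, and S against NS was 0.049 for Timd4 and -0.048 for Cd163. With stock as a covariate, S against C was -0.070 for Timd4, and NS against C was -0.0052 for Vsig4 and 0.40 for Cd163. Vsig4 in NS against C was -0.0011 with the size factors of DESeq2 and -0.0034 by DESeq2.

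With each animal left out, the number called in S against C was 0 to 1. In S against C the log2 fold change ran from -0.40 to 0.52 for Marco, -0.095 to 0.54 for C1qa, -0.0053 to 0.76 for C1qb, -0.72 to 0.27 for Timd4, -1.58 to 2.58 for Cd163 and -0.28 to 5.89 for Col1a1. In NS against C the log2 fold change ran from -0.28 to 0.22 for Marco, -0.38 to 0.049 for Mrc1, -0.20 to 0.14 for C1qa, -0.23 to 0.16 for C1qb, -0.19 to 0.15 for C1qc, -0.15 to 0.22 for Vsig4, -0.054 to 0.23 for Timd4 and -1.51 to 2.04 for Cd163. In S against NS the log2 fold change ran from -0.44 to 0.52 for Marco, -0.087 to 0.56 for C1qa, -0.82 to 0.18 for Timd4 and -1.30 to 1.78 for Cd163.

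Among other list genes, 251 alternatives in S against C kept direction and side of the threshold, 52 lost the call and 3 reversed, and in SM2 against BW 459 kept both and 86 lost the call. Depth limits Cd163 in BW animals, Folr2, Scara5, Adgre1, Cd79b, Tyro3, Xcr1 and Krt7, whose counts were few in many animals. All 3 females were in S and 1 SM2 animal in each group, and neither sex within C or NS nor stock within a group was tested.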
